A study of Mus musculus with 6 samples.

Results

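The genes described here encode the translation initiation factors eIF1 to eIF6 and the elongation factors eEF1 and eEF2 of mouse, with their direct binding proteins and modifying enzymes. They were chosen by gene symbol (Eif1 to Eif6 and Eef1 to Eef2, without the Eif2ak kinases), which gave 65 of the 15399 genes in the expression table, and no measured value entered that choice. By complex, 5 of them carry an eIF1 or eIF1A symbol, 5 an eIF2, 5 an eIF2B, 14 an eIF3, 17 an eIF4, 5 an eIF5 or eIF6 and 14 an elongation factor symbol. RNA was sequenced from the mouse line bEND.3, a line derived from brain endothelium. The treated group stably expressed circSlc17a5, a circular RNA of the gene Slc17a5. The control group stably expressed what its labels call a negative control, with 3 libraries in each group. The series title concerns blood vessel growth in the eye, and the comparison asks which messenger RNAs differ when the circular RNA is expressed. The labels do not say whether the libraries came from separate cultures or clones, so p-values measure the spread between these libraries, which may be technical.

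Initiation begins when eIF1, eIF1A, eIF3 and the eIF2 complex with initiator tRNA and GTP load onto the small ribosomal subunit, and the eIF4 factors bring it to the capped messenger RNA. After start codon recognition eIF5 and eIF5B complete subunit joining, eIF2B recharges eIF2 with GTP, and eEF1 and eEF2 drive the elongation cycle. The pathway is controlled in most cells by phosphorylation of eIF2 under stress and by 4E-BP proteins, which bind the cap-binding protein eIF4E when mTORC1 is inactive.

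Library totals lay between 16848513 and 17600230 counts, and 11722 genes were tested. Slc17a5 itself was 1.36-fold higher with circSlc17a5 (log2 fold change 0.44 ± 0.093 SE, edgeR adjusted p = 0.0133). These counts are per gene, and a value for the circle itself was not analysed here. Of the 12 endothelial markers, 11 were in the table and 3 were tested, of which edgeR and DESeq2 each called 0 and 1 had an unadjusted p under 0.05. Most endothelial markers were near 0, with 5 to 11 counts of Pecam1 and 14 to 35 of Cdh5 per library. Flt1 and Egfl7 were not, with 789 to 1174 and 186 to 241 counts. The epithelial keratin Krt18 had 15887 to 24698 counts, and Krt8 and Krt19 had at least 5078. Of the other epithelial markers, Cdh1 had 0 to 3 counts, Krt7 0 or 1 and Epcam 12 to 40. Summed endothelial marker levels were 19.1 to 21.1 TPM (transcripts per 1000000, a level per length) in control and 23.2 to 26.7 in circSlc17a5 libraries. Summed epithelial levels were 1547 to 1918 and 1597 to 1648 TPM, with Epcam risen and Krt18 fallen among 4 tested genes. Once length and GC content were adjusted for, Krt18 was not called (edgeR adjusted p = 0.0678). In that fit Krt19 was called higher (log2 fold change 0.20, edgeR adjusted p = 0.0344). Mural and fibroblast markers summed to 178 to 202 and 166 to 186 TPM, with 2 of 9 tested genes risen (Pdgfrb and Notch3) and 2 fallen (Des and Anpep). The 2 risen genes were rare, with 24 to 71 counts of Pdgfrb and 18 to 54 of Notch3 per library. Tagln had 139, 2 and 0 counts in control replicates 1, 2 and 3 and 7, 147 and 20 in circSlc17a5 replicates 1, 2 and 3, and Col1a2 had 508, 3 and 0 and 7, 257 and 77. Acta2 and Col1a1 were likewise highest in control replicate 1 and circSlc17a5 replicate 2. Leukocyte markers summed to 262 to 311 and 345 to 394 TPM, nearly all of it Cd68, with Ptprc at 0 or 1 count. Cd68 was not called from counts (edgeR adjusted p = 0.0954). It was called higher with length and GC content adjusted for (log2 fold change 0.41, edgeR adjusted p = 0.00708). The part of these markers in the results below was not tested, and in bulk RNA a change in the mix of cells and a change within each cell cannot be told apart. On the first principal component control replicate 1 lay at -5.49, apart from the other control libraries at -34 and -21.5, while the circSlc17a5 libraries lay between 15.6 and 26.4, replicate 2 among them at 18.9.

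By edgeR, cells with circSlc17a5 had lower levels of 8 translation factor genes and a higher level of 1. The fallen genes were spread over 6 of the 7 groups: Eif1 and Eif1ax of the start codon recognition factors, Eif2b1 of eIF2B, Eif3b and Eif3k of eIF3, the 4E-BP gene Eif4ebp3, the subunit joining factor Eif5b, and Eef1d of the elongation factor eEF1. The risen gene was Eif4e3, a rare relative of the cap-binding protein eIF4E. Apart from Eif4ebp3, which fell 2.19-fold, and Eif4e3, which rose 1.5-fold, the changes were between 1.23-fold and 1.35-fold. Of the 65 genes, 61 passed the filter on low counts and were tested with edgeR's quasi-likelihood test, with Benjamini-Hochberg adjustment over all 11722 genes and calls at an adjusted p under 0.05.

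Whether the share of called genes was above or below that of the whole table depended on the fit. By edgeR, among all tested genes 11.8% rose, 10.2% fell and 22.0% were called in either direction, against 14.8% of the 61 translation factors. By DESeq2, 26.2% of the 61 and 21.3% of all genes with an adjusted p were called. Its calls in the family were 2 rises (Eif3a and Eif4g1) and 14 falls, where 11.2% and 10.1% of all genes rose and fell. The falls were the 8 above with Eef1b2, Eef1g, Eif3f, Eif3m, Eif4a3 and Eif6, and Eif4e3 was not called. Without control replicate 1 the edgeR shares were 47.5% of the family and 39.7% of all genes. Over 16 alternatives the family's share was the lower one in 11 and the higher one in 5, in 1 of which (no filter) both rounded to 16.9%. The direction of the estimates was less even, since 43 of the 61 log2 fold changes were negative, against 5912 of 11722 over all tested genes. The estimates went with transcript length, as given below, and the family was shorter (median effective length 1722 bases, against 2615.5 over all tested genes). The family's median was -0.08 on the log2 scale, against -0.00 over all tested genes, while the median size regardless of sign was 0.19 in both. The 3 libraries of one group lay entirely above or below the 3 of the other for 29 of the 61 genes, 10 of them higher and 19 lower with circSlc17a5. Over all tested genes 21.8% were apart and higher and 20.7% apart and lower. In the authors' deposited table, made with another test, 2 of the translation factors were called higher and 12 lower at q under 0.05, where 7.90% and 7.11% of the listed genes were.

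**Figure D1:**
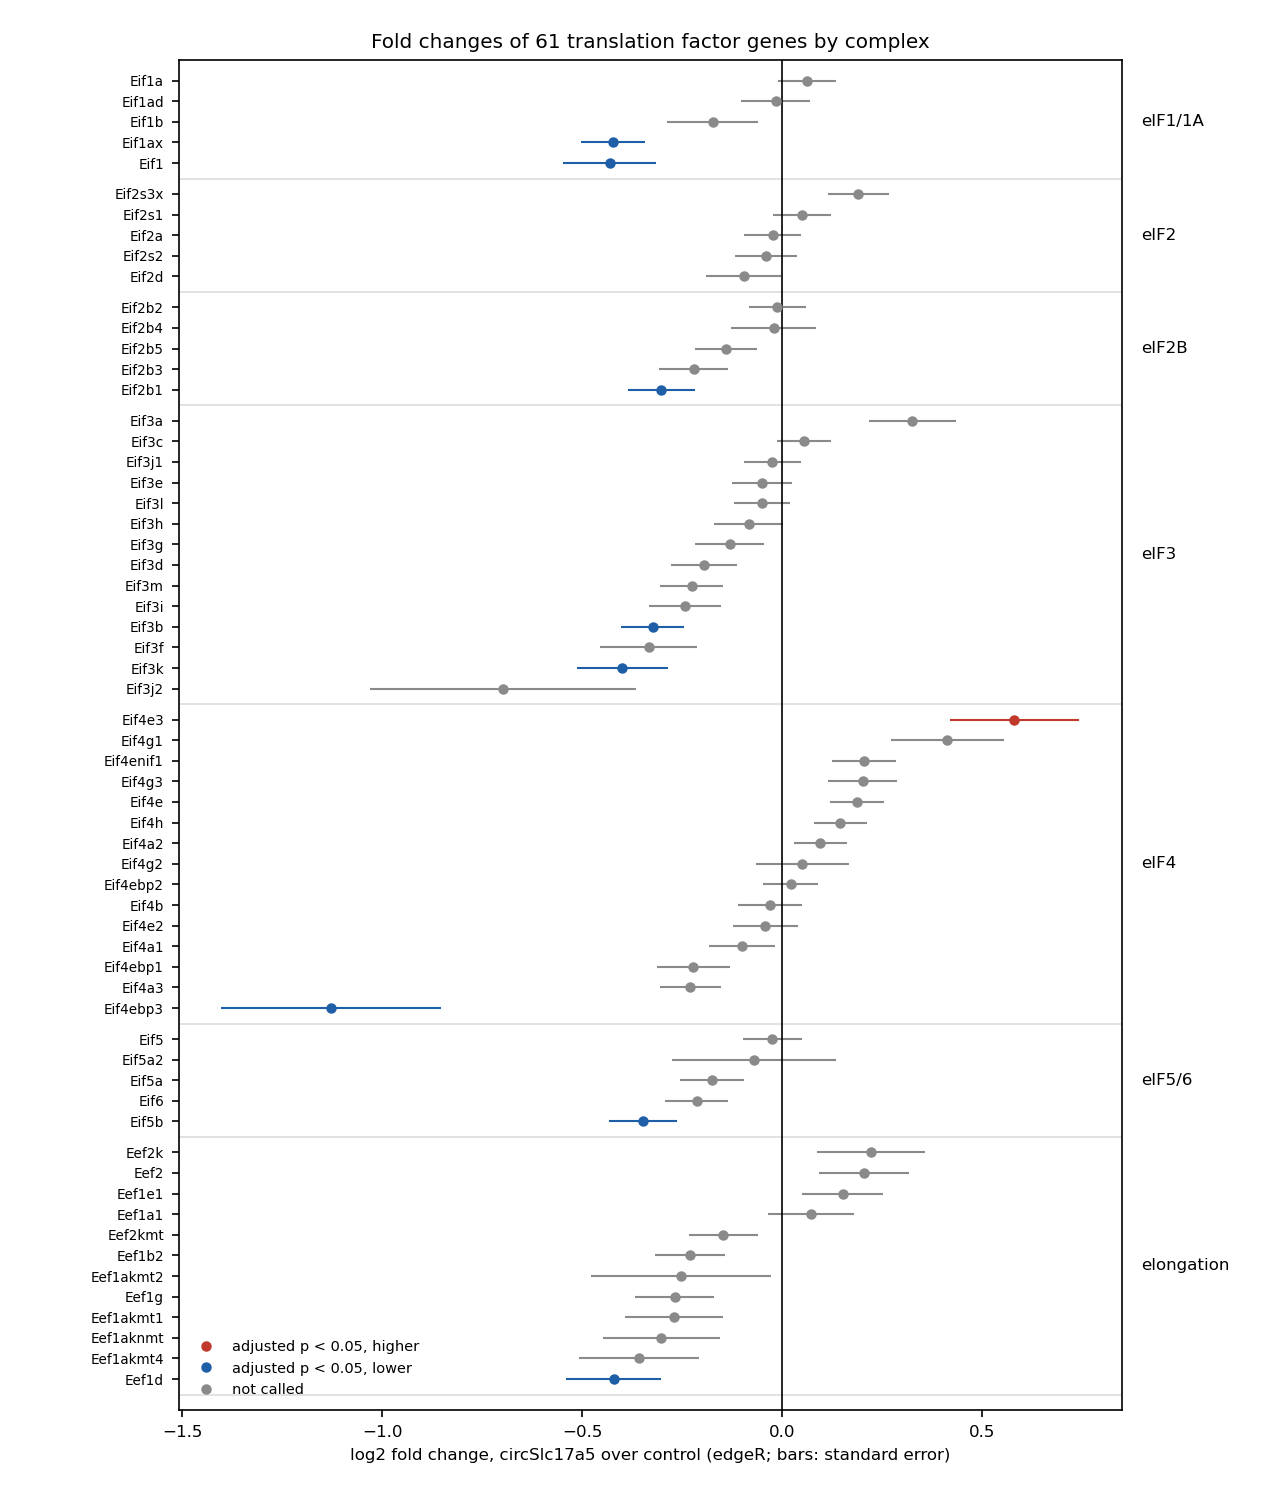
Log2 fold change of circSlc17a5 over control for the 61 tested translation factor genes, grouped by complex, with standard errors from edgeR's quasi-likelihood fit. Coloured points passed an adjusted p of 0.05: 8 lie left of 0 and Eif4e3 alone lies right of it, and Eif4ebp3 is the farthest from 0 at -1.13.

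Many messenger RNAs for translation factors begin with a 5′ terminal oligopyrimidine (TOP) tract, a run of C and T at the cap through which mTORC1 controls their translation. The transcription start is therefore shown for the fallen genes and, for comparison, for genes of the family that do or do not carry such a run. Of the 65 genes, 49 had a start in RefSeq's table of GRCm38.p6 that was used here, among them 6 of the 9 called genes. Each line gives 30 bases of the coding strand, 10 before the annotated start and 20 from it on, with a run of 5 or more C and T touching the start in capitals.
Eif1 (chr11:100319939-100319968, plus strand): ggcgtcacaggggcggctatataagtgaat
Eif1ax (chrX:159372168-159372197, plus strand): ggaggagggcggggagaagccccgcccgct
Eif2b1 (chr5:124579112-124579141, minus strand): tcgatttccggcgccgacgagtgacgccac
Eif3b (chr5:140419295-140419324, plus strand): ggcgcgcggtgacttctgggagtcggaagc
Eif3k (chr7:28981869-28981898, minus strand): aaccggcgctggtgctgaaagcgcctttcc
Eif5b (chr1:37998000-37998029, plus strand): ctgggTTCCCacctggccggcggctctact
Eif3f (chr7:108934405-108934434, plus strand): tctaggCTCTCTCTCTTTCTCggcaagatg
Eif3l (chr15:79075213-79075242, plus strand): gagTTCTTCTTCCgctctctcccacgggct
Eif2s3x (chrX:94212632-94212661, minus strand): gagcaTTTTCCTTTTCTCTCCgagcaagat
Eef1a1 (chr9:78481705-78481734, minus strand): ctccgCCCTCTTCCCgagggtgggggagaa
Eef2 (chr10:81176621-81176650, plus strand): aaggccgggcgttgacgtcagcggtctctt

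The 6 fallen genes shown had runs of at most 5 bases at any of their listed starts. An unbroken run of at least 8 C or T, on the coding strand and holding the start or a base next to it, was present in 6 of the 49 genes (12.2%) and in 734 of 9416 tested genes with a start (7.80%). For a gene with several starts the longest run was taken. Eef2 is known as a TOP messenger RNA and shows no such run at the start listed, so the letters in this window do not settle which messenger RNAs are of that kind. Of the 10 translation factors on a list of known TOP messenger RNAs, edgeR called Eef1d lower and none higher. DESeq2 called 4 lower (Eef1d, Eef1b2, Eef1g and Eif3f) and Eif3a higher. Over all genes 10.2% fell and 11.8% rose by edgeR, and 10.1% and 11.2% by DESeq2. With offsets for length and GC content none of these genes was called (edgeR adjusted p = 0.112, 0.0882, 0.156 and 0.130, and 0.159 for Eif3a). The list's median log2 fold change from counts was -0.07.

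Among the 5 tested genes with an eIF1 or eIF1A symbol, 2 fell by edgeR, where 10.2% of all tested genes did. Eif1 (Entrez 20918, chromosome 11, 100319949 to 100322099) encodes the factor that keeps the scanning ribosome open until an AUG is reached. Its normalised level was 806, 1092 and 1003 CPM (counts per 1000000, after TMM scaling) in control replicates 1, 2 and 3, and 647, 780 and 726 CPM in circSlc17a5 replicates 1, 2 and 3. Every circSlc17a5 library lay below every control library, with control replicate 1 the nearest. The mean went from 967 ± 146 to 718 ± 67.1 CPM (SD, n = 3 libraries each), 1.35-fold lower (log2 fold change -0.43 ± 0.117 SE, edgeR adjusted p = 0.0288). With 1 library left out the adjusted p lay between 0.00115 and 0.119, and the call held only without control replicate 1.

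Eif1ax, the X-linked gene of eIF1A, which binds the small subunit and promotes scanning, was the most stable of the 9 calls. Control replicates 1, 2 and 3 had 135, 159 and 142 CPM, and those with circSlc17a5 had 104, 110 and 111 CPM. The groups did not overlap, and the 3 circSlc17a5 values were close together. The mean fell from 145 ± 12.3 to 108 ± 3.8 CPM, 1.34-fold (log2 fold change -0.42 ± 0.079 SE, edgeR adjusted p = 0.00874), and with any 1 library left out the adjusted p stayed at or under 0.0483. The autosomal copy Eif1a encodes a nearly identical protein, and its log2 fold change was 0.06 ± 0.072 SE (edgeR adjusted p = 0.539). The sources used here do not say how reads were divided between these copies. The sum of both copies was 237 to 264 CPM in control and 211 to 219 CPM in circSlc17a5 libraries, and the groups did not overlap. In TPM, Eif1ax stood at 0.81 ± 0.069 of Eif1a in control and at 0.58 ± 0.033 with circSlc17a5, a ratio picked after the values were seen. Eif1b, a close relative of Eif1, had a log2 fold change of -0.17 ± 0.114 SE (edgeR adjusted p = 0.276), with 23.9 to 30.2 CPM in control and 21.9 to 26.5 CPM in circSlc17a5 libraries. The remaining gene, Eif1ad, was at -0.02.

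**Figure D2:**
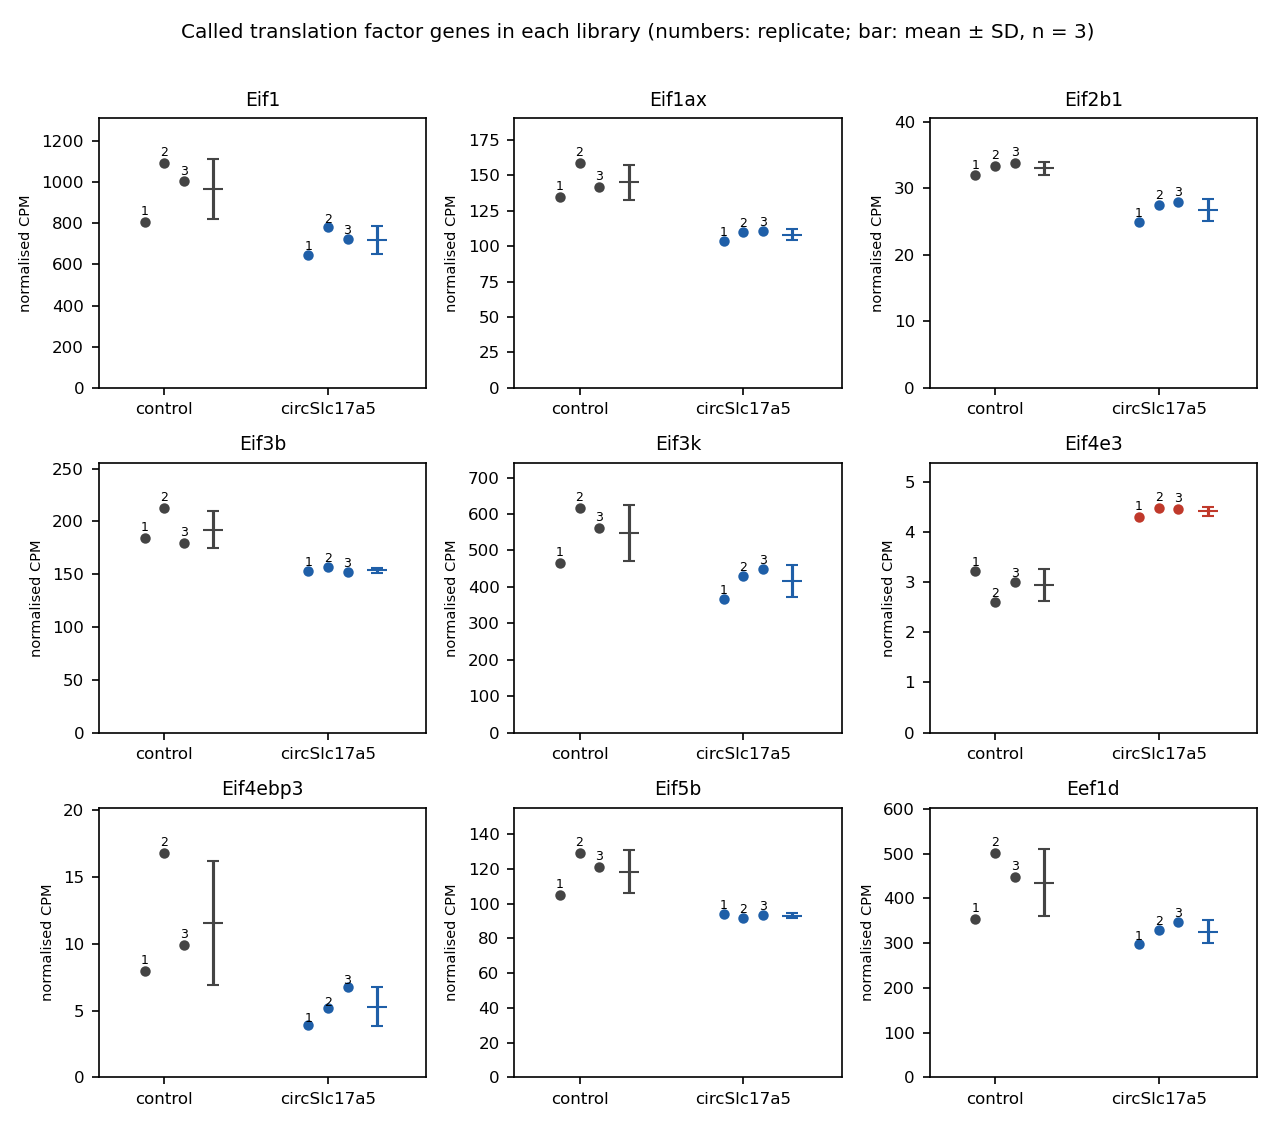
Normalised CPM of the 9 called genes in each library, numbered by replicate, with mean ± SD beside the points (n = 3 libraries per group, axes from 0). The groups do not overlap in any panel, and control replicate 1 is the control library nearest to the circSlc17a5 group in every panel but that of Eif3b.

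Of the 5 tested genes with an eIF2 symbol, edgeR and DESeq2 each called 0, and 1 had an unadjusted p under 0.05. The trimer that carries initiator tRNA is encoded by Eif2s1 (alpha, the subunit phosphorylated under stress), Eif2s2 (beta) and Eif2s3x (gamma, which binds GTP). Eif2s2 had 407 to 470 CPM in control and 420 to 442 CPM in circSlc17a5 libraries, overlapping ranges, with a log2 fold change of -0.04 ± 0.077 SE. Eif2s1 was at 0.05 ± 0.074 SE. Eif2s3x was 1.14-fold higher with no overlap between the groups (133 to 151 and 157 to 173 CPM), and its edgeR adjusted p of 0.0894 missed the threshold. Eif2a and Eif2d, which deliver initiator tRNA outside the trimer, were at -0.02 ± 0.071 and -0.10 ± 0.094 SE. Both had overlapping groups.

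Of the 5 eIF2B genes, which encode the exchange factor for eIF2, Eif2b1 fell by edgeR, where 10.2% of all tested genes did. Eif2b1 (Entrez 209354, chromosome 5) encodes the alpha subunit, part of the regulatory core that senses phosphorylated eIF2. It had 31.9, 33.3 and 33.7 CPM in control and 24.9, 27.5 and 27.9 CPM with circSlc17a5. The lowest control value exceeded the highest circSlc17a5 value. The mean fell from 33.0 ± 0.958 to 26.8 ± 1.65 CPM, 1.23-fold (log2 fold change -0.30 ± 0.083 SE, edgeR adjusted p = 0.0305). The adjusted p lay between 0.0122 and 0.124 with 1 library left out, and the call held only without control replicate 1. All 5 log2 fold changes of eIF2B were negative and none of the other 4 genes was called. The catalytic subunit gene Eif2b5 had 46.2 to 51.6 CPM in control and 42.8 to 44.9 CPM with circSlc17a5, with no overlap between the groups. Its log2 fold change was -0.14 ± 0.077 SE (edgeR adjusted p = 0.204), and that of Eif2b2 was -0.01 ± 0.072 SE.

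The eIF3 scaffold, the largest initiation factor, had 2 fallen and no risen genes among 14 tested by edgeR, and 4 fallen and 1 risen by DESeq2. Over all genes 10.2% fell and 11.8% rose by edgeR, and 10.1% and 11.2% by DESeq2. Eif3b, the subunit that anchors the mobile eIF3b-g-i module, had 184, 213 and 180 CPM in control and 153, 157 and 152 CPM with circSlc17a5. Its circSlc17a5 values were nearly equal and below all control values. The mean fell from 192 ± 17.9 to 154 ± 2.49 CPM, 1.25-fold (log2 fold change -0.32 ± 0.079 SE, edgeR adjusted p = 0.0218). Eif3k, a small peripheral subunit, had 465, 617 and 563 CPM in control and 366, 431 and 450 CPM with circSlc17a5. Control replicate 1 and circSlc17a5 replicate 3 lay close to each other, and the groups did not overlap. Eif3k fell 1.32-fold (log2 fold change -0.40 ± 0.113 SE, edgeR adjusted p = 0.0336). Over the fits without 1 library the adjusted p lay between 0.00563 and 0.0854 for Eif3b, which kept its call without control replicate 1 or 3. It lay between 0.00192 and 0.132 for Eif3k, which kept its call only without control replicate 1.

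The other eIF3 genes gave 1 estimate well above 0. Eif3a, the largest core subunit, was 1.25-fold higher (211 ± 31.9 and 265 ± 19.0 CPM, groups apart), with an edgeR adjusted p of 0.0523. Its core partner Eif3c was at 0.05 ± 0.068 SE on the log2 scale. The remaining 10 uncalled genes were all negative, 12 of the 14 estimates in total, and the eIF3 median was -0.16. The most abundant, Eif3h and Eif3e, had overlapping groups, with 1090 to 1270 and 1062 to 1118 CPM for Eif3h and 868 to 912 and 846 to 895 CPM for Eif3e. Eif3f, a subunit with a deubiquitinase-like fold, was 1.26-fold lower with a wide control range of 460 to 652 CPM (edgeR adjusted p = 0.0687). Eif3j2 was at -0.70 ± 0.333 SE, with 32, 30 and 73 counts in control and 28 to 30 with circSlc17a5. It is a near copy of Eif3j1, and the sum of both was 103 to 115 and 103 to 109 CPM.

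The eIF4 genes held the 1 rise and the largest fall that edgeR called in the family. Eif4e3 (Entrez 66892, chromosome 6) encodes a cap-binding protein of the eIF4E family. It was rare, with 55, 43 and 51 counts in control and 77, 78 and 76 with circSlc17a5, or 3.23, 2.60 and 3.00 against 4.30, 4.48 and 4.45 CPM. All circSlc17a5 values lay above all control values. The log2 fold change was 0.58 ± 0.162 SE (edgeR adjusted p = 0.0317), and by DESeq2 the adjusted p was 0.0825. In TPM, Eif4e3 amounted to 1.37% ± 0.136 of Eif4e in control and to 1.77% ± 0.0544 with circSlc17a5. Over the same fits the adjusted p lay between 0.0136 and 0.103, under 0.05 only without control replicate 1.

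Eif4ebp3 encodes the third 4E-BP, a repressor that competes with the eIF4G scaffold for eIF4E. It had 7.98, 16.8 and 9.89 CPM in control and 3.91, 5.16 and 6.79 CPM with circSlc17a5. Control replicate 2 was far above the other control libraries, and the lowest control value was still above the highest circSlc17a5 value. The mean went from 11.6 ± 4.64 to 5.29 ± 1.45 CPM (log2 fold change -1.13 ± 0.274 SE, edgeR adjusted p = 0.0212). Without control replicate 2 the log2 fold change was -0.76 and the call held. It was lost without control replicate 3, circSlc17a5 replicate 1 or circSlc17a5 replicate 2, with an adjusted p of up to 0.0986. In human, read-through transcripts join this gene to its neighbour ANKHD1, and here mouse Ankhd1 rose 1.36-fold (log2 fold change 0.44 ± 0.129 SE, edgeR adjusted p = 0.0372). With offsets for length and GC content the Ankhd1 estimate was 0.20 and was not called (edgeR adjusted p = 0.18).

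The more abundant 4E-BPs did not pass the test. Eif4ebp1 had 426 to 520 CPM in control and 367 to 420 CPM with circSlc17a5, a log2 fold change of -0.22 ± 0.092 SE (edgeR adjusted p = 0.101), and Eif4ebp2 was at 0.02 ± 0.068 SE. Eif4e itself had 165, 153 and 156 CPM in control and 178, 177 and 185 CPM with circSlc17a5, groups that did not overlap. Its log2 fold change was 0.19 ± 0.067 SE (edgeR adjusted p = 0.0678). Summed over the 3 genes, 4E-BP messenger RNA in TPM was 6.67, 8.43 and 6.80 times that of Eif4e in control and 5.03, 5.78 and 5.35 times with circSlc17a5. The means were 7.30 ± 0.979 and 5.39 ± 0.374, and this ratio was picked after the values were seen and has no test. Most of the sum was Eif4ebp1, a short gene with an effective length of 709 bases. With offsets for length and GC content its log2 fold change was -0.07 (edgeR adjusted p = 0.405), and that of Eif4e was 0.21 (edgeR adjusted p = 0.0266). The part of length in this ratio was not tested.

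The scaffold and helicase genes of eIF4 were not called by edgeR, while DESeq2 called Eif4g1 higher and Eif4a3 lower. Eif4g1, the scaffold, was 1.33-fold higher (207 ± 45.5 and 276 ± 31.8 CPM, edgeR adjusted p = 0.058), with control replicate 1 at 255 CPM and circSlc17a5 replicates 2 and 3 at 258 CPM. Its relatives Eif4g2 and Eif4g3 were at 0.05 ± 0.116 and 0.20 ± 0.087 SE on the log2 scale. The helicase genes Eif4a1 and Eif4a2 were at -0.10 ± 0.083 and 0.10 ± 0.067 SE, and Eif4a3, a core part of the exon junction complex, at -0.23 ± 0.076 SE (edgeR adjusted p = 0.0528). Eif4b, which stimulates the helicase, had 1201 to 1320 and 1182 to 1270 CPM, overlapping ranges. Of 15 tested eIF4 genes 9 had positive and 6 negative log2 fold changes, and the median was 0.05.

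Eif5b was the gene that edgeR called lower among 5 of the eIF5 and eIF6 group, to which DESeq2 added Eif6. Over all genes 10.2% fell by edgeR and 10.1% by DESeq2. Eif5b encodes the GTPase that joins the large ribosomal subunit. It had 105, 129 and 121 CPM in control and 94.1, 91.7 and 93.7 CPM with circSlc17a5, with all circSlc17a5 values below the controls. The mean fell from 119 ± 12.4 to 93.2 ± 1.3 CPM, 1.27-fold (log2 fold change -0.35 ± 0.084 SE, edgeR adjusted p = 0.021). Leaving out each library in turn gave an adjusted p between 0.00113 and 0.0778, and the call held only without control replicate 1. The listed span of Eif5b (chromosome 1) overlaps that of Rev1 by 2794 bases, and the log2 fold change of Rev1, a DNA polymerase gene, was 0.22 ± 0.102 SE. Eif5a, the hypusine-bearing factor that helps ribosomes through difficult sequences, had 800 to 910 and 726 to 771 CPM, and Eif6, which keeps the free large subunit apart, had 239 to 268 CPM in control and at most 228 CPM with circSlc17a5. Neither overlapped between the groups and neither passed the test (edgeR adjusted p = 0.13 and 0.0724). Eif5, the GTPase activator of eIF2, was at -0.02 ± 0.074 SE, and Eif5a2, a rare relative of Eif5a, at -0.07 ± 0.204 SE.

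Among 12 tested elongation genes Eef1d fell by edgeR, and Eef1d, Eef1b2 and Eef1g by DESeq2. Over all genes 10.2% fell by edgeR and 10.1% by DESeq2. Eef1d encodes the delta subunit of eEF1B, the exchange factor that reloads eEF1A with GTP. It had 354, 502 and 449 CPM in control and 297, 330 and 347 CPM with circSlc17a5. Control replicate 1 and circSlc17a5 replicate 3 were close together, with no overlap between the groups. The mean fell from 435 ± 74.6 to 325 ± 25.8 CPM, 1.34-fold (log2 fold change -0.42 ± 0.118 SE, edgeR adjusted p = 0.0326). Without each library in turn the adjusted p lay between 0.000818 and 0.132, under 0.05 only without control replicate 1. Its listed span overlaps that of Tigd5 by 50 bases, and Tigd5 had 55 to 76 counts per library. The other exchange factor subunits, Eef1b2 and Eef1g, were also lower with no overlap (log2 fold changes -0.23 ± 0.087 and -0.27 ± 0.098 SE) and did not pass the test (edgeR adjusted p = 0.0773 and 0.0715).

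The factors that these subunits serve were the most abundant of the family and were not called. Eef1a1, which brings aminoacyl-tRNA to the ribosome, had 15999 to 17897 CPM in control and 17764 to 18317 CPM with circSlc17a5, overlapping ranges, with a log2 fold change of 0.07 ± 0.107 SE. Eef2, the translocase, had 4663 to 5869 and 5977 to 6602 CPM, groups that did not overlap, and a log2 fold change of 0.21 ± 0.113 SE (edgeR adjusted p = 0.199). Eef2k, the kinase that inhibits eEF2, was at 0.22 ± 0.135 SE. The methyltransferase genes of eEF1A and eEF2 that were tested (Eef1akmt1, Eef1akmt2, Eef1akmt4, Eef1aknmt and Eef2kmt) had log2 fold changes from -0.15 to -0.36, and none was called. The genes left out by the filter were Eef1a2, the muscle and neuron form of Eef1a1, Eef1akmt3, Eif4e1b and Eif4a3l1, each with a group mean of at most 0.171 CPM.

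**Figure D3:**
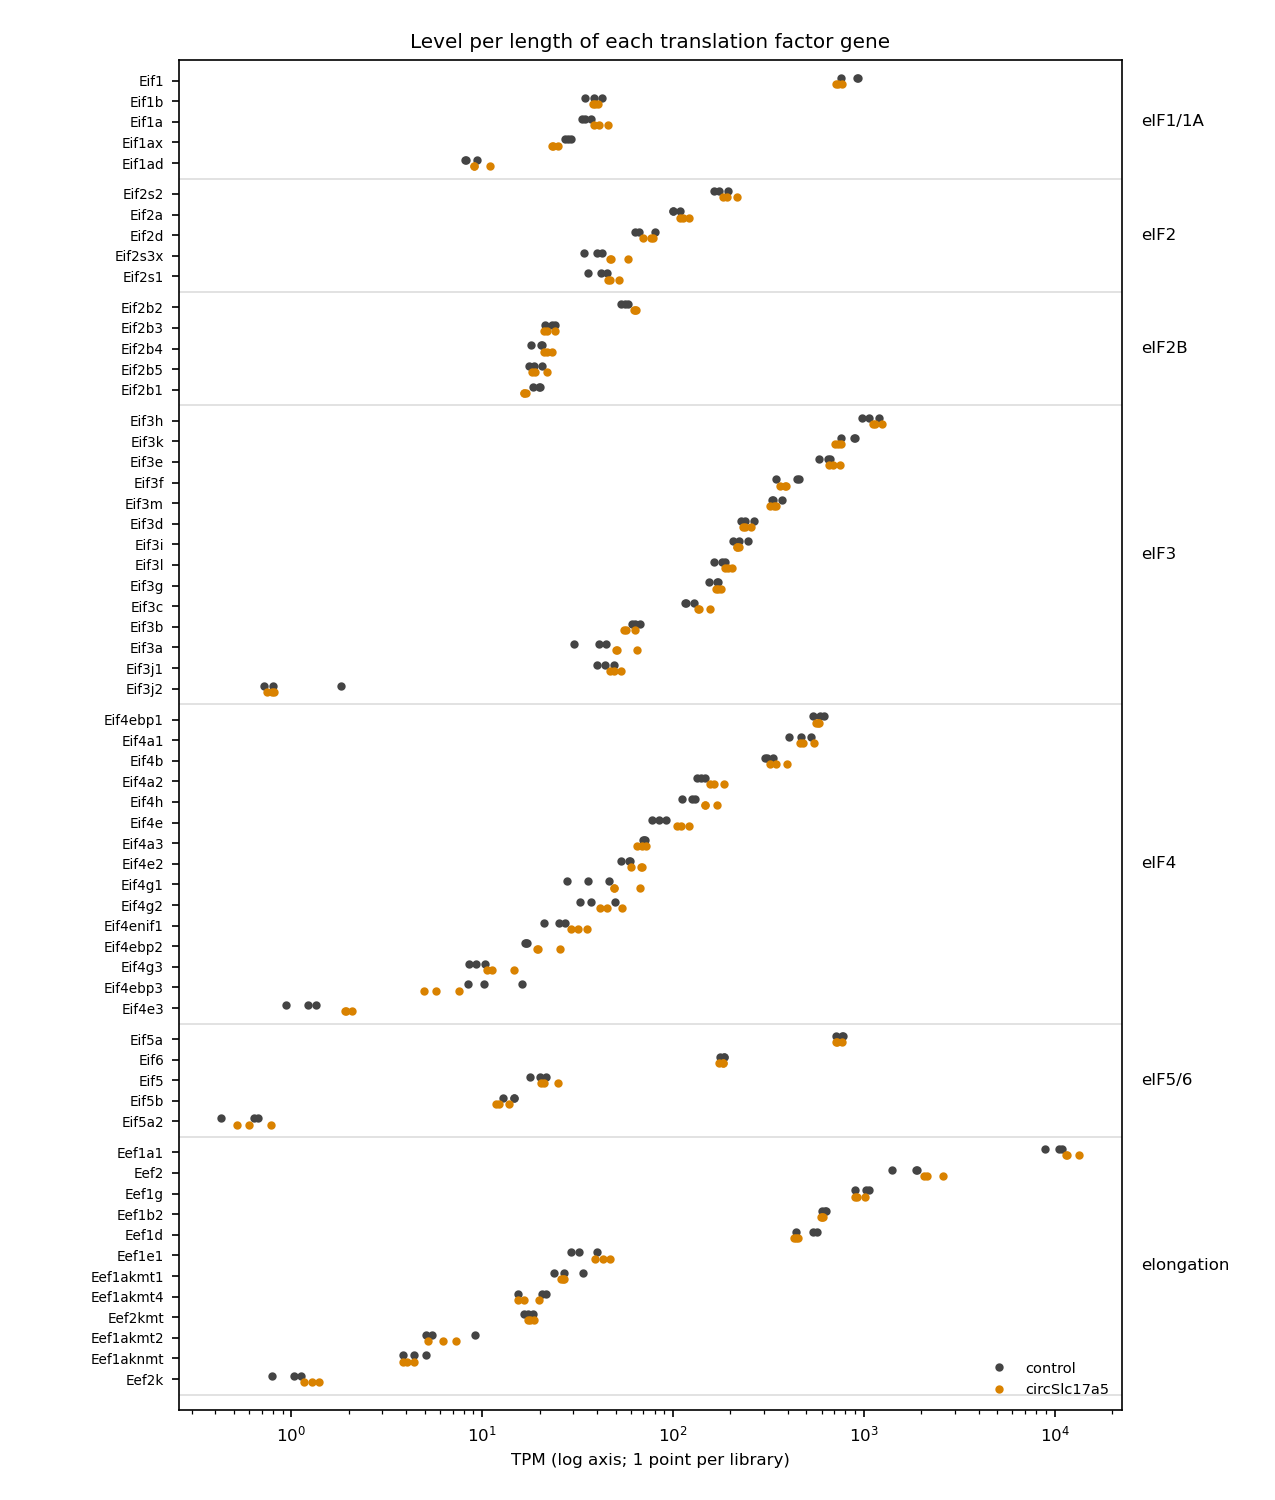
TPM of each translation factor gene with a mean of at least 0.5 TPM, 1 point per library, on a log axis and grouped by complex. Eef1a1 is the highest gene, at a mean of 10154 TPM in control and 12179 TPM with circSlc17a5, and within most complexes single genes differ more from each other than the groups do.

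In TPM the family made up 2.30% of the messenger RNA in control and 2.56% with circSlc17a5. The summed level was 23029 ± 1376 and 25605 ± 1808 TPM, and the groups did not overlap. Most of it was the elongation group, at 14123 ± 1256 and 16554 ± 1434 TPM, chiefly Eef1a1 and Eef2. The sum of eIF1 and eIF1A was 982 ± 99.0 and 853 ± 26.4 TPM, of eIF3 4404 ± 266 and 4448 ± 162 TPM, and of eIF5 and eIF6 970 ± 36.0 and 951 ± 31.2 TPM, each with overlapping groups. The eIF2, eIF2B and eIF4 sums were higher without overlap, for eIF4 at 1983 ± 85.5 and 2169 ± 148 TPM. TPM values are not rescaled for composition as the normalised CPM are, and on log2(FPKM + 1), from the authors' values per length and library total, the median log2 difference of all tested genes was 0.05 and that of the family 0.00. On that scale limma-trend called 4 risen genes (Eif3a, Eif4e, Eif4e3 and Eif4h) and 5 fallen ones, where 12.8% and 5.99% of all genes rose and fell, beside 1 and 8 from the counts.

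The fold changes of the family went with transcript length. Among the 21 shortest genes, with effective lengths of 577 to 1293 bases, 20 log2 fold changes were negative and the median was -0.23. Among the 20 longest, of 2284 to 7525 bases, 12 were positive and the median was 0.05. Over all tested genes of up to 1293 bases and of 2270 bases or more the medians were -0.19 and 0.09. Spearman's rho between length and log2 fold change was 0.52 over the 61 genes and 0.41 over 11722 genes, as a description across genes of the same 6 libraries. After edgeR was refitted with per-gene offsets for length and GC content, rho was 0.07 over the family and -0.00 over all genes. The offsets were fitted to the length and GC trends of these same 6 libraries, so the loss of the trend over all genes was built in. A group difference that goes with length would be removed along with it.

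With that offset 3 genes of the family rose and 6 fell, where 11.1% and 9.39% of all tested genes did. Eif3k and Eef1d, both short, lost their calls (log2 fold changes -0.18 and -0.17, edgeR adjusted p = 0.0740 and 0.112). Eif1ax and Eif5b, with effective lengths of 4593 and 7525 bases, went from -0.42 to -0.63 and from -0.35 to -0.61. Eif4e and Eif4h, a helper of the eIF4A helicase, rose in that fit (0.21 and 0.23, edgeR adjusted p = 0.0266 and 0.0267). Eif1, Eif2b1, Eif3b, Eif4ebp3 and Eif4e3 kept their calls. The median over the family was -0.04.

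**Figure D4:**
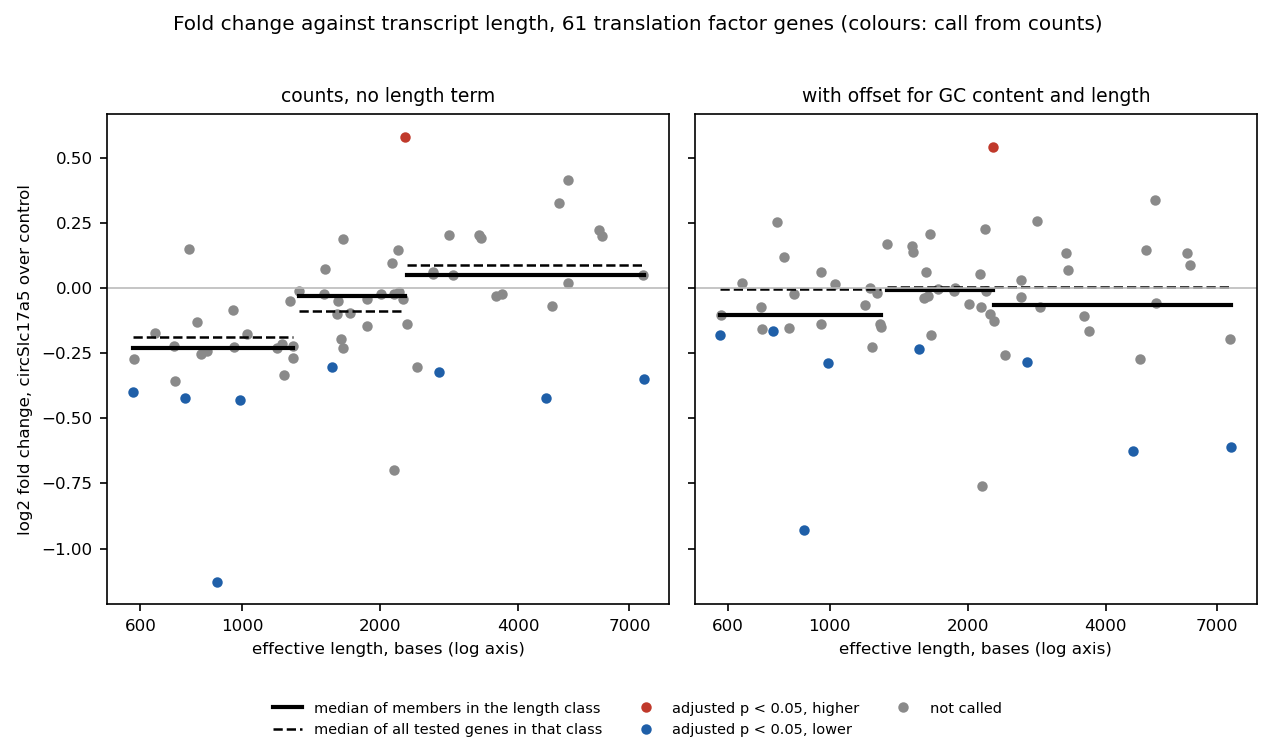
Log2 fold change against effective transcript length for the 61 tested genes, from counts (left) and with length and GC offsets (right), coloured by the call from counts. Thick lines are medians of the family in 3 length classes and dashed lines those of all tested genes between the same limits, the outer classes being open. On the left the medians of the family go from -0.23 to 0.05. On the right, where the offsets take out the length trend of all genes by construction, they lie between -0.10 and -0.01.

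Between settings the directions of the 9 called genes did not change, and most calls did. Eif1ax was called in all 16 alternatives. Without control replicate 1, 8 of the family rose and 21 fell, and 39.7% of all genes were called. Without control replicate 2, control replicate 3 or circSlc17a5 replicate 3 the family had 0 risen and 2 fallen genes each. Without circSlc17a5 replicate 1 or 2 it had 0 risen and 1 fallen, Eif1ax. In those 5 fits between 3.90% and 9.17% of all genes were called. With control replicate 1 and circSlc17a5 replicate 2 left out, the libraries highest in Tagln, Acta2, Col1a2 and Col1a1, 5 rose and 17 fell among the family and 31.3% of all genes were called, so the number of calls in the family moved with that of the whole table.

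**Figure D5:**
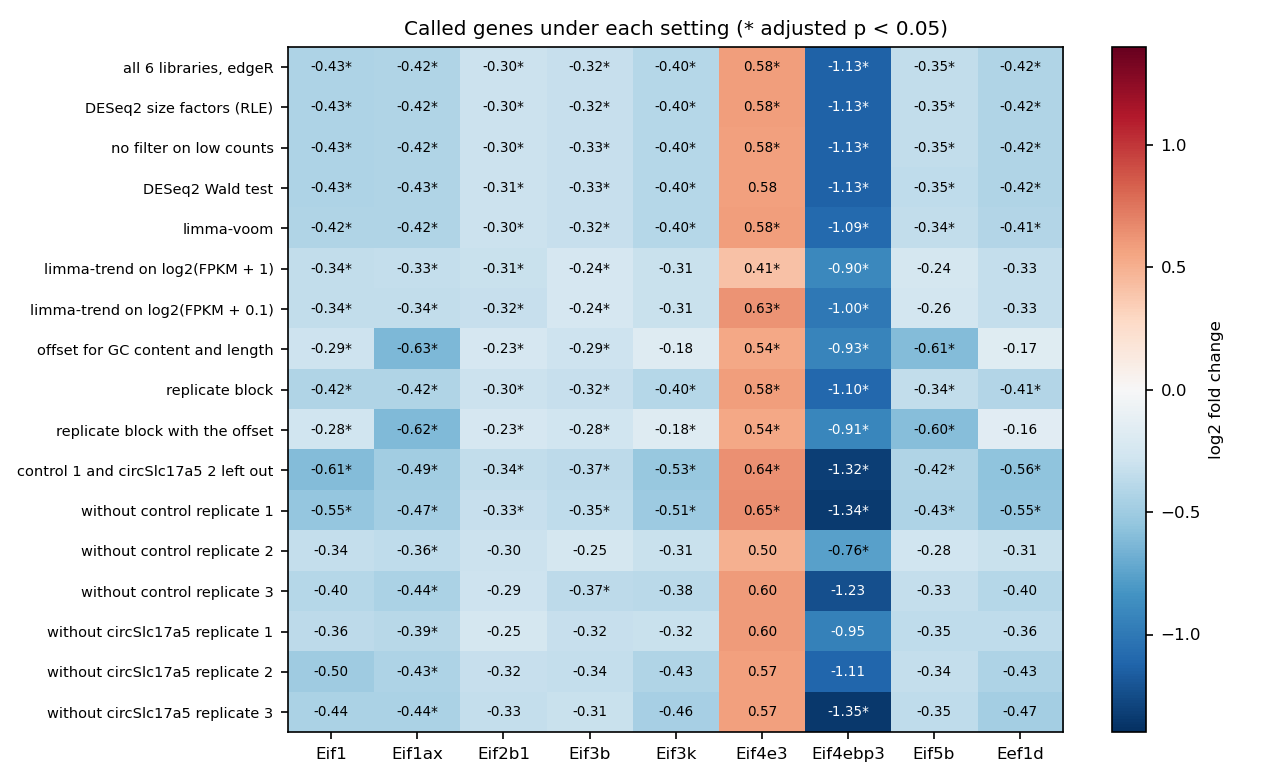
Log2 fold change of the 9 called genes under the edgeR fit of all 6 libraries and under each of 16 alternatives, with an asterisk where the adjusted p was under 0.05. Signs are the same in every row, and Eif1ax is the gene with an asterisk throughout.

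The transcripts of these genes were tested in the same way, and edgeR called 0 of them. The table held 197 transcripts of the family, of which 132 were tested, and 31 had an unadjusted p under 0.05 (21 lower, 10 higher). The smallest edgeR adjusted p was 0.171. Over all tested transcripts 0.00708% were called. For 50 of the genes a single transcript made up over 90% of the TPM.

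Some shares of transcripts differed between the groups, given here as a description of genes picked for their difference. Eif5a has 2 main transcripts, and the first made up 61.4%, 32.2% and 48.7% of its TPM in control replicates 1 to 3 and 81.8%, 74.1% and 64.1% with circSlc17a5. The second Eif2b1 transcript made up 25.7%, 65.6% and 39.6% in control and 15.2%, 26.4% and 24.1% with circSlc17a5, so control replicate 1 lay within the circSlc17a5 range. For Eif4e2, a cap-binding repressor also called 4EHP, the main control transcript went from 55.0% ± 7.08 to 30.2% ± 5.26, while the gene as a whole had overlapping groups (113 to 130 and 112 to 127 CPM). Such shares are estimates by the authors' software for transcripts that share most of their bases.

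Around the factors, edgeR called 8 of the 54 tested genes of 6 pathway lists, 14.8% of them against 22.0% of all tested genes. With the length and GC offset 3 of these calls remained (Eif2ak3, Tsc2 and Dph3) and 5 were lost. In that fit 4 others were called, Akt1s1 higher and Eif2ak2, Gspt1 and Paip1 lower. All 8 calls held without control replicate 1, and each was lost in 2 to 5 of the fits without 1 library. Of the 9 tested genes for eIF2 kinases and stress control, Eif2ak3 rose 1.52-fold (23.1 ± 6.06 and 35.1 ± 2.25 CPM, log2 fold change 0.60 ± 0.162 SE, edgeR adjusted p = 0.0282) and none fell. Eif2ak3 encodes PERK, the eIF2 kinase of the endoplasmic reticulum. Atf4, the transcription factor translated when eIF2 is phosphorylated, was at -0.04 ± 0.10 SE, and Ppp1r15a, which restores eIF2, at 0.04 ± 0.09 SE. The list's median was 0.01.

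Of 14 genes for mTORC1 and MAPK signals to translation, 2 fell and none rose by edgeR, where 10.2% and 11.8% of all tested genes did. The list's median was 0.07. The fallen genes were Tsc2, an inhibitor of mTORC1 (log2 fold change -0.40 ± 0.088 SE, edgeR adjusted p = 0.0156), and Rps6kb2, a kinase that mTORC1 activates (-0.53 ± 0.146 SE, edgeR adjusted p = 0.0305, and 0.0522 with the offset). Mtor was at 0.20 ± 0.08 SE and was not called. Of 6 poly(A) binding proteins and partners Larp4 rose 1.29-fold (edgeR adjusted p = 0.0182), with a median of 0.03. The log2 fold change of Larp4 went from 0.36 to 0.12 with the offset, where it was not called (edgeR adjusted p = 0.177). Of 7 genes for reinitiation, termination and recycling Abce1, which splits ribosomes after termination, rose 1.22-fold (135 ± 9.47 and 165 ± 2.08 CPM, edgeR adjusted p = 0.0237), with a median of -0.05. Abce1 went from 0.29 to 0.14 on the log2 scale with the offset and was not called there (edgeR adjusted p = 0.0882).

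Of 9 tested enzymes that modify eIF5A and eEF2, 3 fell and none rose by edgeR, where 10.2% and 11.8% of all tested genes did. The median was -0.18, against -0.00 over all tested genes. With the length and GC offset the median was -0.08 and 1 of the 3 calls, Dph3, remained. Dph3 and Dph5 act in diphthamide synthesis on eEF2 and fell 1.30-fold and 1.33-fold (edgeR adjusted p = 0.0446 and 0.043), and with the offset the adjusted p of Dph5 was 0.0687. Dohh, which completes hypusine on eIF5A, fell 1.19-fold (44.1 ± 1.03 and 37.0 ± 2.22 CPM, edgeR adjusted p = 0.0448), and its estimate with the offset was 0.01 (edgeR adjusted p = 0.925). Dhps, which begins that modification, was at -0.30 ± 0.13 SE and was not called. Of 9 mitochondrial translation factor genes edgeR and DESeq2 each called 0, 2 had an unadjusted p under 0.05, both lower, and the median was -0.10.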

How the data were processed

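Libraries were made from total RNA with a SMARTer mRNA-Seq kit, per the labels' protocols. The authors deposited expected counts, which are estimates of reads per gene or transcript that need not be whole numbers (9.1% to 10.8% of a library's gene values were not whole), with FPKM and TPM. Library sums of the deposited TPM were 999984 to 999989. The submitters' processing notes name RSEM 1.2.12, HISAT2 2.0.4 and Bowtie2 2.2.5, with no role given. The authors' table, with DESeq2 named in its headers, holds log2 fold changes, p-values and q-values. The sources used here do not state the genome build, the settings of DESeq2 or whether counting used strand. A start listed for GRCm38.p6 lay within 1 base of an end of the deposited gene span for 38 of the 49 genes with both.

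Expected counts were rounded, 15398 of the 15399 genes had an annotation entry and were used, and after filterByExpr and TMM scaling each gene was tested by edgeR 4.0.16 in R 4.3.3 (quasi-likelihood F test, two-sided, 3 against 3 libraries, no further term). Adjusted p-values are Benjamini-Hochberg values over all tested genes, a call is an adjusted p under 0.05, and folds are circSlc17a5 over control or its inverse. The SE of a log2 fold change is its absolute value divided by the square root of F. Normalised CPM are counts per 1000000 after TMM. Effective lengths were derived from the deposited counts and FPKM, and GC content came from GENCODE transcripts for 98.2% of tested genes. The offset used a loess fit per library (span 0.3). The fit was run on simulated counts whose changes were larger than most of those called here and which held no outlying library. That run does not bear on how sure the calls are. Alternatives used DESeq2 1.42.0, limma 3.58.1 (voom, and trend on log2(FPKM + 1) or log2(FPKM + 0.1) with a mean FPKM of at least 0.5), other scaling, no filter, a replicate block and left-out libraries.

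The genes described, the pathway and marker lists and the tests were chosen with earlier results of these data known. Named genes are every called member and, in each complex, the 2 uncalled members with the highest mean CPM. They are described with each library's values, with their range or, for some uncalled members, with the log2 fold change alone. Close relatives, genes that lost or gained a call under the offset, and the transcript examples were added, the last after their values were seen. From each list up to 2 risen and 2 fallen genes were named, and Dohh, Atf4, Ppp1r15a, Mtor and Dhps were added for their roles. Genes whose listed spans overlap another gene include Eif4a1 (Senp3), Eif5a (Gps2), Eif2a (Serp1), Eif2d (Rassf5), Eif4a2 (Rfc4), Eif4ebp1 (Adgra2) and Eif4enif1 (Sfi1), and Eif4g3, Eif2b3 and Eif3i lie in the long listed spans of several loci.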

Additional observations from a re-analysis of the deposited data

How the results depend on the processing

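The counts of risen and fallen translation factors, 1 and 8 in the main test, were 1 and 8 with DESeq2 size factors, 3 and 8 with no filter, 2 and 14 by DESeq2, 2 and 8 by limma-voom, 4 and 5 by limma-trend on log2(FPKM + 1) as on log2(FPKM + 0.1), 3 and 6 with the length and GC offset, and 5 and 17 with control replicate 1 and circSlc17a5 replicate 2 left out. With 1 library left out they ranged from 0 to 8 risen and from 1 to 21 fallen. With the replicate block they were 8 and 19 (44.3% of the family against 37.8% of all genes), and with the replicate block and the offset 7 and 11. Same-numbered libraries correlated at 0.219, 0.0678 and 0.0649 in their deviations from the group means, and not every library correlated best with its own number, so the numbers were not taken to pair the libraries. The median log2 fold change of the family, -0.0830, was 0.0017 with either FPKM pseudocount, -0.0384 with the offset, -0.0358 with the replicate block and the offset, and -0.1026 to -0.0533 with 1 library left out. The cause of these shifts was not tested.

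The pathway lists together had 3 risen and 5 fallen genes. Risen genes were 5 by log2(FPKM + 1), 8 with the replicate block, 5 with the block and the offset, 5 with those 2 libraries left out, and 0 to 8 with 1 library left out. Fallen genes were 2 with either FPKM pseudocount, 8 with the replicate block, 8 with the block and the offset, and 0 to 9 with 1 library left out. The offset gave 2 risen and 5 fallen genes, of which 3 were among the 8 called from counts. Transcript calls were 0 in each of the 8 alternatives run.

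Among called genes Dohh changed sign, from -0.2529 to 0.0120 with the offset and 0.0145 with the replicate block and the offset. The other changes of sign were of estimates near 0, for genes that were not called. With the offset alone, and with the replicate block and the offset, they were -0.0338 and -0.0319 for Eif1a, 0.0199 and 0.0219 for Eif1b, 0.1706 and 0.1715 for Eif2b2 (adjusted p = 0.0491 in the latter), 0.0620 and 0.0663 for Eif3h, and 0.0176 and 0.0189 for Eif5a. Eif6 was at 0.0001 with the block and the offset. With FPKM + 1 and + 0.1 they were 0.0423 and 0.0425 for Eif2s2, 0.0440 and 0.0443 for Eif2a, 0.0664 and 0.0674 for Eif2b2, 0.0017 for Eif3h and 0.0311 for Eif3e with both, and 0.0501 and 0.0502 for Eif4b. With 1 library left out they ranged from -0.1006 to 0.0001 for Eif2s2, -0.0674 to 0.0162 for Eif2a, -0.0431 to 0.0380 for Eif2b2 and -0.0666 to 0.0034 for Eif4b. Depth limits the rare genes, since Eif4e3 had 43 to 78 counts and Eif4ebp3 70 to 278 per library.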

Other observations

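Ratios between factors that act against or beside each other were computed in TPM after the values were seen, with no test. Eif1 stood at 35.1, 52.5 and 45.7 times Eif5 in control and at 29.1, 36.3 and 35.3 times with circSlc17a5, overlapping ranges. The helicase gene Eif4a1 stood at 3.34 ± 0.358 times Eif4a2 in control and at 2.96 ± 0.12 times with circSlc17a5, and the groups overlapped. Eef1a1 stood at 5.93 ± 0.400 times Eef2 in control and at 5.39 ± 0.189 times with circSlc17a5, with no overlap between the groups. Eif4enif1, the eIF4E transporter that shuttles eIF4E to the nucleus, had 81.4 to 96.3 CPM in control and 99.1 to 106 CPM with circSlc17a5, with a log2 fold change of 0.21 ± 0.080 SE (edgeR adjusted p = 0.085). Eef1e1, which encodes a scaffold of the multisynthetase complex despite its elongation factor symbol, was at 0.15 ± 0.101 SE (edgeR adjusted p = 0.282).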
